A study of Rattus norvegicus with 24 samples.

Results

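Store-operated calcium entry genes and inositol trisphosphate (IP3) receptor genes were followed in 3 rat tissues: the sensors Stim1 and Stim2, the channel subunits Orai1, Orai2 and Orai3, and the receptors Itpr1, Itpr2 and Itpr3. They were chosen by gene symbol, and all 8 were found among the 22864 genes of the deposited table, of which 20506 held values. Rats aged 24 weeks gave left ventricles, adrenal glands and superior cervical ganglia, the last a cluster of sympathetic nerve cells in the neck. In each tissue 4 libraries came from the spontaneously hypertensive rat (SHR), an inbred strain with inherited high blood pressure and a thickened left ventricle, and 4 from the Wistar-Kyoto rat (WKY), its usual control, which makes 6 groups and 24 libraries. The labels give no treatment and no subline. Whether each library is a rat of its own is not stated, so a p-value here speaks of library-to-library spread, which can be technical.

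Calcium is held in the endoplasmic reticulum and leaves it through IP3 receptors when a hormone or transmitter activates phospholipase C, which makes IP3. STIM proteins span the reticulum membrane, sense the fall of calcium inside it and open ORAI pores in the plasma membrane, so that calcium enters and the store can be refilled. The entering calcium can act on calcineurin, a phosphatase that sends NFAT transcription factors to the nucleus, a route known from growth of heart muscle cells; IP3-driven calcium release also takes part in aldosterone secretion by the adrenal cortex and in muscarinic signalling of sympathetic neurons. A truncating Stim1 variant is known in an injury-prone SHR subline; which Stim1 allele these rats carried is not given in the labels, and a table of expression values does not show it.

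Levels are FPKM, fragments scaled by transcript length and library size, as the authors deposited them, so levels of different genes can be compared per length. The summed FPKM was 533805 to 549167 in ventricle libraries, 493051 to 517693 in adrenal libraries and 455530 to 465993 in ganglion libraries, and the read depth is unknown. Each tissue carried its defining markers. The summed FPKM of 6 cardiomyocyte markers was 29915 to 32693 in the ventricle and at most 17.4 elsewhere. That of 5 adrenal cortex markers was 24580 to 27706 in the adrenal gland and at most 24.0 elsewhere. For 8 sympathetic neuron markers it was 9217 to 9790 in the ganglion, 175 to 576 in the adrenal gland and at most 14.4 in the ventricle. SHR replicate 3 lay away from its group in the ventricle, with a second principal component score of 20.1 where the other SHR libraries had -14.2 to 1.57, and in the adrenal gland, with 25.7 where they had -13.2 to -6.15. Without it 4 members of the ventricle and 3 of the adrenal gland passed the test, the same counts as with it.

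The question in each tissue was which of these genes stand higher or lower in SHR than in WKY. Strain differences were tested on log2(FPKM + 1) with limma over all genes of a tissue that reached an FPKM of 1 in at least 4 of its 8 libraries, with a threshold of 0.05 on the Benjamini-Hochberg adjusted p. All 8 members passed this filter in the ventricle and the adrenal gland and 7 in the ganglion, where Itpr2 was too low. In the ventricle 4 of 8 members passed the test, Orai2 higher in SHR and Stim1, Itpr2 and Itpr3 lower, where 21.2% of all 12451 genes passed, 9.2% higher and 12.0% lower. For the adrenal gland 3 of 8 passed, Orai3 and Itpr3 higher and Orai2 lower, where 41.2% of 12589 genes passed, 16.5% higher and 24.7% lower, so the members' share was close to the background. The ventricle's split turned with median-of-ratios scaling, to 1385 genes higher and 1272 lower from 1146 and 1498. Of all adrenal calls 40.0% were higher in SHR, and 53.1% were with median-of-ratios scaling, under which these 3 members kept their calls. The ganglion had 2 of 7, Stim1 and Orai3, both higher, where 10.8% of 12987 genes passed, 6.37% higher and 4.43% lower. These 9 member calls are the same 9, in the same directions, that had q-values under 0.05 in the authors' deposited table.

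**Figure D1:**
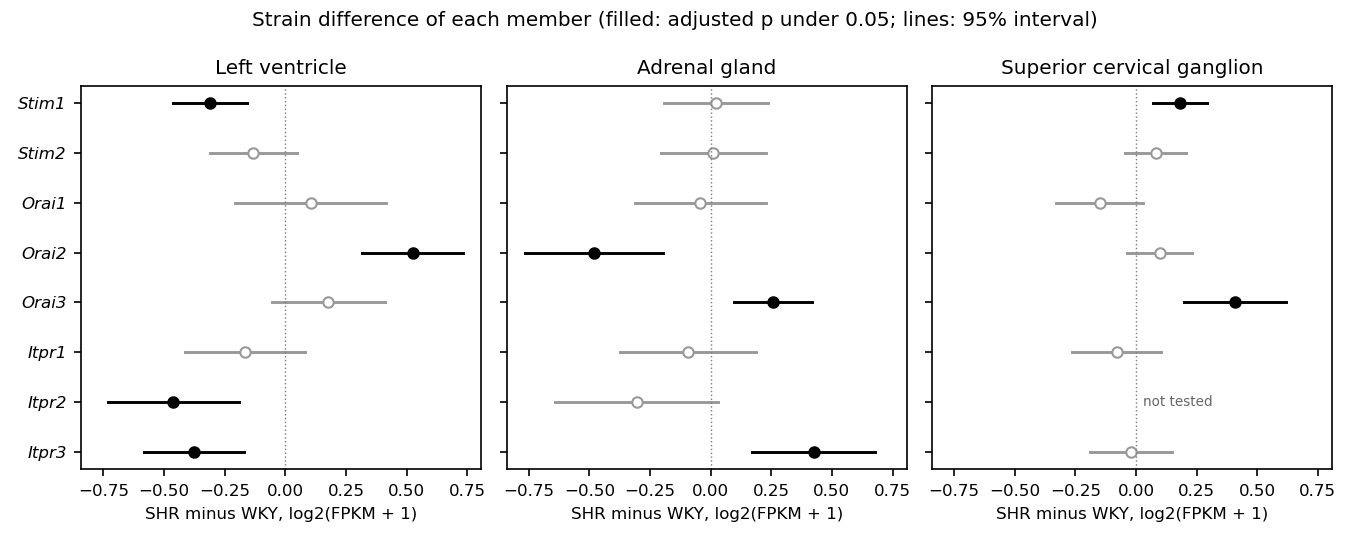
Strain difference of each member in each tissue, in log2(FPKM + 1) units of SHR less WKY on the x axis, with its 95% interval from limma; filled points passed the adjusted threshold of 0.05 and open points did not. Orai2 lies at 0.52 in the left ventricle and at -0.48 in the adrenal gland, and Itpr3 at -0.38 and 0.43.

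The promoters of Stim1, Orai3 and Itpr3 are shown because these genes passed the test in more than 1 tissue: Orai3 was higher in SHR in both tissues where it passed, and Stim1 and Itpr3 were higher in one tissue and lower in another. Orai2 also passed in more than 1 tissue but is named only, because no RefSeq promoter was found for it. Each stretch covers 250 bases before and 50 after a transcript start given by RefSeq on build GRCr8, plus strand, and capitals mark the GC box GGGCGG on either strand. RefSeq promoters were found for 7 of the 8 genes.
Stim1 (chr1:166067964-166068263): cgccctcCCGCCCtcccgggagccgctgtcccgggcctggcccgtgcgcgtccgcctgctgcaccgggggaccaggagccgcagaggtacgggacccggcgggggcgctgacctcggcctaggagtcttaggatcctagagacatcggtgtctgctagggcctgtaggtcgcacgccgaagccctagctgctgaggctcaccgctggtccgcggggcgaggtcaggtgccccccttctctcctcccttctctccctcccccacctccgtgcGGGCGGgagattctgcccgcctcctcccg
Orai3 (chr1:191811421-191811720): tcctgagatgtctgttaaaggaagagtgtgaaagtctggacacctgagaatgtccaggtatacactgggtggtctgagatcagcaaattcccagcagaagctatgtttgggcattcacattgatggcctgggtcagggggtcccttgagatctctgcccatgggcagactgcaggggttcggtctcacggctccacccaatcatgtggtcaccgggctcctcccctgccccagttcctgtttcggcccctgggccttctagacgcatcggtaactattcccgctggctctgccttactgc
Itpr3 (chr20:5138562-5138861): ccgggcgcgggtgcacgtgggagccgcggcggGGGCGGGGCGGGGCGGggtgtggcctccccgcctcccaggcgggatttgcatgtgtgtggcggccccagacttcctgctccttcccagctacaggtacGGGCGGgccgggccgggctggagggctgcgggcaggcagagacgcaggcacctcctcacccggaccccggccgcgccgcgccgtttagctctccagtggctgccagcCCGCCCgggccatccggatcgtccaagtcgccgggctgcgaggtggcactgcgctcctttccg
The GC box occurred 2 times in the Stim1 stretch and 5 times in the Itpr3 stretch, overlapping matches counted, and was not found in the Orai3 stretch; 33.1% of all 33469 RefSeq promoters of this length hold it. The Orai3 stretch held 1 CCAAT box (letters CCAAT on either strand), which 37.5% of promoters hold. The TATA box letters TATAAA, on either strand, were in none of these 3 stretches and in 14.2% of promoters. The share of G and C was 72.7% for Stim1, 56% for Orai3 and 76% for Itpr3. These letters come from the reference strain of that assembly, not from SHR or WKY.

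Stim1, the main store sensor of most cells, was lower in the SHR ventricle and higher in the SHR ganglion. In the ventricle its FPKM was 14.3, 12.2, 12.5 and 13.3 in WKY replicates 1 to 4 and 9.91, 10.7, 10.6 and 10.1 in SHR. The strains did not overlap, as for 24.8% of all genes tested in the ventricle. The mean was 13.1 ± 0.96 (SD, n = 4) in WKY and 10.3 ± 0.38 in SHR, a ratio of 0.79, and the log2 difference was -0.31 (SE 0.07, limma adjusted p = 0.0105).
In the ganglion Stim1 stood at 16.4, 15.3, 15.0 and 16.6 FPKM in WKY and at 18.9, 17.2, 17.7 and 18.6 in SHR, again with no overlap, as for 17.2% of genes there. Its means were 15.8 ± 0.80 and 18.1 ± 0.78 (SD, n = 4), a ratio of 1.14, and the log2 difference of 0.18 (SE 0.05) had a limma adjusted p of 0.0452. That call is near the threshold: it was lost in 7 of the 8 refits that leave out 1 library, all but the one without WKY replicate 4 (adjusted p = 0.0488 to 0.121 over the 8 refits; difference 0.16 to 0.21).
Adrenal levels of Stim1 overlapped between strains, at 9.0, 10.9, 11.2 and 10.7 FPKM in WKY and 11.3, 10.1, 9.28 and 11.9 in SHR. The log2 difference there was 0.02, with a 95% interval of -0.19 to 0.24 (limma adjusted p = 0.872).

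Stim2, the sensor that answers to small falls of stored calcium, did not pass in any tissue. It ranged from 8.49 to 10.7 FPKM in WKY and 7.87 to 8.86 in SHR ventricles, from 13.8 to 17.5 and 14.6 to 18.6 in adrenal glands, and from 10.1 to 12.1 and 11.5 to 12.1 in ganglia. The strains overlapped in all 3 tissues. The 95% intervals of the log2 difference were -0.31 to 0.05, -0.21 to 0.23 and -0.05 to 0.21 (limma adjusted p = 0.281, 0.941 and 0.447), so differences of these sizes could not be told from none.

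Orai2, a channel subunit that in mouse immune cells tempers the current carried by Orai1, was higher in the SHR ventricle and lower in the SHR adrenal gland. In the ventricle it stood at 1.39, 1.11, 1.13 and 1.24 FPKM in WKY and at 2.51, 1.93, 2.19 and 2.14 in SHR. Every SHR ventricle was above every WKY ventricle, and 24.8% of all genes tested there did not overlap between strains. The means were 1.22 ± 0.13 and 2.19 ± 0.24 (SD, n = 4), and the ratio was 1.80. The log2 difference was 0.52 (SE 0.09, limma adjusted p = 0.00387); at these low levels the added 1 understates the change, and with 0.1 added the difference was 0.80.
Adrenal Orai2 stood at 1.72, 1.53, 2.02 and 1.37 FPKM in WKY and at 0.60, 1.03, 0.81 and 1.21 in SHR. Here every SHR library was below every WKY library, as 39.4% of genes did not overlap between strains in this gland. The means were 1.66 ± 0.28 and 0.91 ± 0.26 (SD, n = 4), a ratio of 0.55, and the log2 difference was -0.48 (SE 0.13, limma adjusted p = 0.0140). All WKY but only 2 SHR libraries reached an FPKM of 1; with no filter on low values the call held (adjusted p = 0.0288). Under quantile normalization the adrenal difference shrank to -0.28 and no longer passed (adjusted p = 0.0587).
In the ganglion, where Orai2 was most abundant, the strains overlapped, with 11.4 to 12.2 FPKM in WKY and 11.5 to 13.6 in SHR (log2 difference 0.10, 95% interval -0.04 to 0.23, limma adjusted p = 0.373).

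Orai3, a subunit that can join Orai1 in channels also opened by arachidonic acid metabolites, was higher in SHR in both sympathoadrenal tissues. Its adrenal values were 11.3, 13.1, 11.4 and 12.8 FPKM in WKY and 15.7, 13.9, 14.3 and 15.0 in SHR. The strains did not overlap, as for 39.4% of genes in this gland. The means were 12.2 ± 0.93 and 14.7 ± 0.78 (SD, n = 4), and the log2 difference was 0.26 (SE 0.07, limma adjusted p = 0.0183). This call was lost without WKY replicate 3 or SHR replicate 1 (adjusted p = 0.0554 and 0.0569).
In the ganglion Orai3 was its lowest, at 3.31, 3.78, 2.71 and 3.91 FPKM in WKY and 4.39, 4.77, 5.23 and 4.98 in SHR. Again the strains did not overlap, as for 17.2% of genes there. The ratio of the means, 4.84 ± 0.36 over 3.43 ± 0.54 (SD, n = 4), was 1.41, and the log2 difference was 0.41 (SE 0.09, limma adjusted p = 0.0213). It was lost without WKY replicate 1 or SHR replicate 2, 3 or 4 (adjusted p = 0.0510 to 0.0682, difference 0.37 to 0.41 in these 4 refits).
In the ventricle 3 SHR libraries, at 9.49, 10.01 and 9.03 FPKM, were above all WKY libraries, which ranged from 7.10 to 8.25, while SHR replicate 4 was at 6.87 and below them. The log2 difference of 0.18 did not pass (95% interval -0.06 to 0.41, limma adjusted p = 0.260), and without SHR replicate 4 it was 0.28 and passed (adjusted p = 0.0431).

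Orai1, the pore of the classical store-operated current, did not pass in any tissue. In the ventricle SHR replicate 1 was at 13.5 FPKM, and the other SHR libraries, at 7.83 to 9.26, lay near the WKY range of 7.99 to 10.2. Adrenal Orai1 ranged from 5.37 to 5.96 in WKY and from 4.74 to 7.29 in SHR, and in the ganglion from 9.65 to 12.3 and from 8.95 to 11.2. The log2 differences were 0.11, -0.04 and -0.15, with 95% intervals of -0.21 to 0.42, -0.31 to 0.23 and -0.33 to 0.03 (limma adjusted p = 0.631, 0.803 and 0.302).

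Itpr2, the most abundant IP3 receptor protein of heart muscle cells, was lower in the SHR ventricle. Its FPKM was 7.59, 6.36, 5.98 and 5.53 in WKY and 4.0, 3.55, 4.47 and 5.43 in SHR. The highest SHR library, replicate 4, came close to the lowest WKY library without reaching it. Of all genes tested in the ventricle 24.8% did not overlap between strains. The means were 6.37 ± 0.88 and 4.36 ± 0.80 (SD, n = 4), a ratio of 0.69, and the log2 difference was -0.46 (SE 0.12, limma adjusted p = 0.0227). The call was lost without WKY replicate 1 or 2 or SHR replicate 1 (adjusted p = 0.0527 to 0.0639) and with no filter on low values (adjusted p = 0.0765).
Adrenal Itpr2 ranged from 1.31 to 1.92 FPKM in WKY and 0.69 to 1.54 in SHR, which overlap, and did not pass (log2 difference -0.30, 95% interval -0.64 to 0.03, limma adjusted p = 0.129); without SHR replicate 4, the highest of them, it was -0.41 and passed (adjusted p = 0.0449). In the ganglion it was at 0.53 to 0.94 in WKY and 0.69 to 1.06 in SHR and was not tested.

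Itpr3, the receptor with the lowest IP3 affinity, was lower in the SHR ventricle and higher in the SHR adrenal gland. In the ventricle it stood at 5.17, 4.21, 3.84 and 4.53 FPKM in WKY and at 2.92, 3.11, 3.32 and 3.33 in SHR. The strains did not overlap, as for 24.8% of genes there. The means were 4.44 ± 0.56 and 3.17 ± 0.20 (SD, n = 4), a ratio of 0.71, and the log2 difference was -0.38 (SE 0.09, limma adjusted p = 0.0168).
The adrenal order was the opposite, with 1.73, 2.11, 2.08 and 1.81 FPKM in WKY and 3.23, 2.68, 2.39 and 3.53 in SHR. The means were 1.93 ± 0.19 and 2.96 ± 0.52 (SD, n = 4), a ratio of 1.53, and the log2 difference was 0.43 (SE 0.11, limma adjusted p = 0.0143). Neither the ventricle call nor the adrenal call was lost in a refit without 1 library (adjusted p up to 0.0467 and 0.0423).
In the ganglion Itpr3 was most abundant and the strains overlapped, at 9.74 to 10.6 FPKM in WKY and 8.37 to 10.97 in SHR (log2 difference -0.02, 95% interval -0.19 to 0.15, limma adjusted p = 0.905).

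Itpr1, the receptor best known from neurons and smooth muscle, did not pass in any tissue. It ranged from 6.43 to 8.21 FPKM in WKY and 5.40 to 7.50 in SHR ventricles, from 8.34 to 10.1 and 7.12 to 10.5 in adrenal glands, and from 1.60 to 2.18 and 1.68 to 1.93 in ganglia. Its log2 differences were -0.17, -0.09 and -0.08, with 95% intervals of -0.41 to 0.08, -0.37 to 0.19 and -0.26 to 0.10 (limma adjusted p = 0.324, 0.578 and 0.626).

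**Figure D2:**
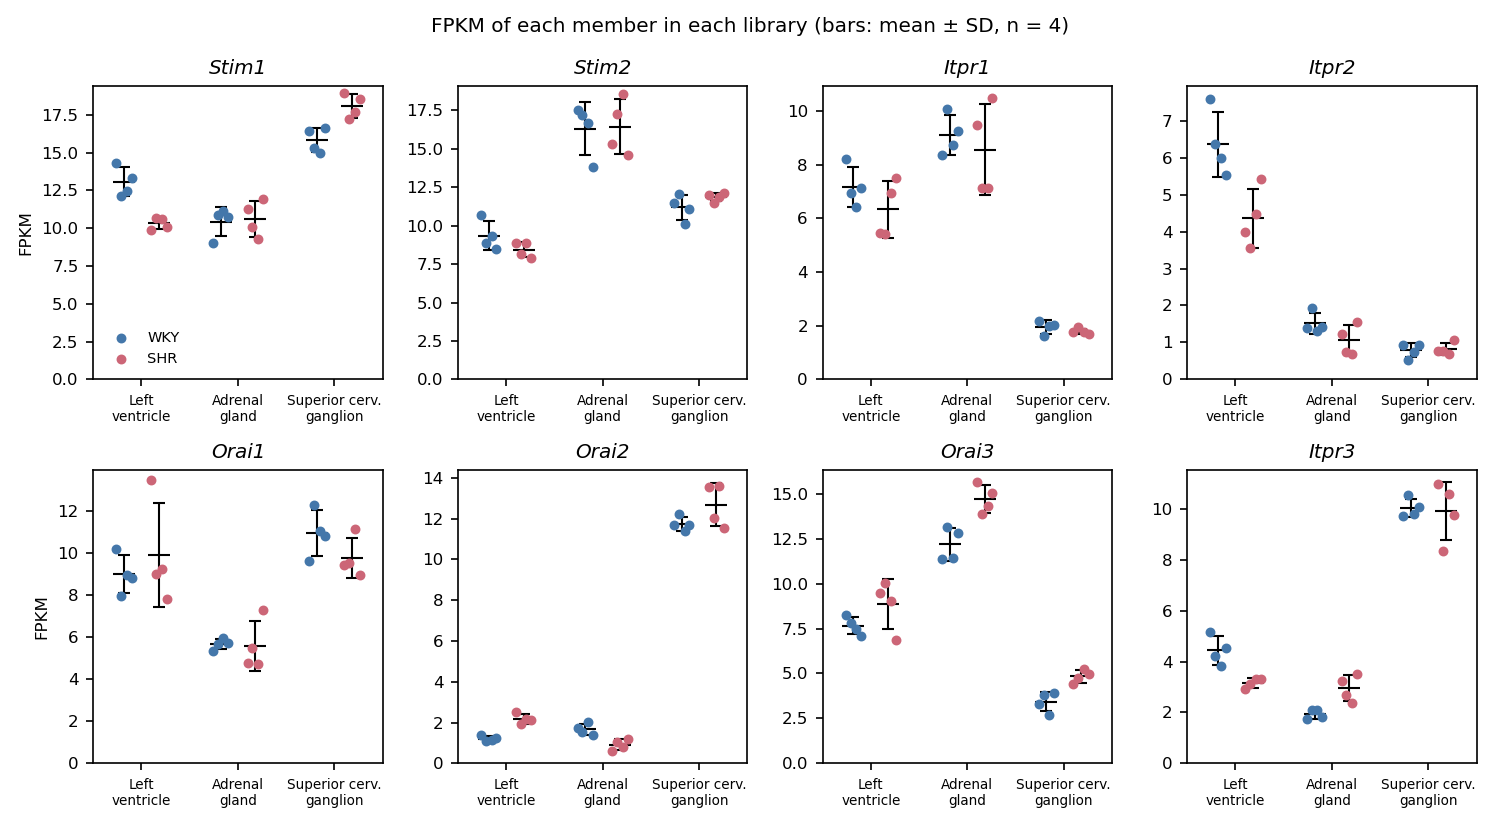
FPKM of the 8 genes in every library, by tissue on the x axis and by strain in colour, with black bars for the mean ± SD of 4 libraries. In the left ventricle the Stim1, Itpr2 and Itpr3 points of SHR lie below all WKY points and those of Orai2 above them; in the adrenal gland the Orai2 points of SHR lie below and those of Orai3 and Itpr3 above.

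Cell type markers moved with strain in the same libraries, and their counts are to be read against the shares of all genes tested. In the adrenal gland 16.5% of all genes passed higher in SHR and 24.7% lower. These shares were 9.2% and 12.0% in the ventricle and 6.37% and 4.43% in the ganglion. Of the adrenal libraries' chromaffin cell markers 5 of 6 tested were lower in SHR and none higher, and their summed FPKM was 1989 to 2294 in WKY and 956 to 1688 in SHR. The gland also had all 6 endothelial markers tested lower (summed FPKM 113 to 124 against 66.3 to 91.2), all 7 leukocyte markers tested lower (283 to 389 against 119 to 188) and 4 of 5 fibroblast markers lower (148 to 184 against 55.3 to 119), while 2 of 5 cortex markers, Star and Mc2r, were higher (summed FPKM of the 5 markers 24580 to 26548 against 26979 to 27706).
Both adrenal erythroid markers tested were lower (235 to 298 against 27.9 to 99.6), and so were 3 of 6 smooth muscle markers (102 to 168 against 67.2 to 129). Sympathetic neuron markers were lower there for 7 of 8 (480 to 576 against 175 to 341). Of 4 adrenal Schwann and satellite glia markers tested 1 was higher and 1 lower (32.9 to 38.5 against 38.3 to 57.9). With limma 0 of 4 adrenal adipocyte markers passed, and their sums spread widely within each strain (20.7 to 298 against 11.85 to 147).
Cardiomyocyte markers of the ventricle passed for 4 of 6, 2 higher and 2 lower (30657 to 32693 against 29915 to 30939). In the ventricle 4 of 7 leukocyte markers tested were higher and none lower, with overlapping sums of 384 to 470 in WKY and 371 to 515 in SHR. Of 6 endothelial markers there 2 were lower (459 to 606 against 452 to 563), both erythroid markers tested were lower (637 to 1623 against 430 to 568), and with limma no smooth muscle, fibroblast or adipocyte marker passed (0 of 6, 1 of 5 and 1 of 1 tested had an unadjusted p under 0.05). In the ganglion 2 of 8 neuron markers passed, Snap25 higher and Dbh lower, with sums of 9217 to 9790 in WKY and 9280 to 9770 in SHR. Of 6 Schwann and satellite glia markers there 1 was higher and 1 lower (619 to 1205 against 588 to 1043). Of 6 leukocyte markers tested 1 was lower and none higher (177 to 271 against 175 to 227).
In whole tissue, fewer cells of a type and less RNA per cell cannot be told apart, and the part of these markers in the differences of Orai2, Orai3, Stim1 and the Itpr genes was not tested.

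The dependence of each strain difference on tissue was tested in 1 limma model of all 24 libraries, on 14682 genes. These genes reached an FPKM of 1 in at least 4 of the 24 libraries. The model takes the libraries as independent, and whether the tissues came from the same rats is not stated. Within a strain, same-numbered libraries of different tissues had r from -0.14 to 0.18 after group means were subtracted. Orai2, Itpr3 and Stim1 differed between the adrenal gland and the ventricle, 3 of 8 members where 34.5% of genes did. The Orai2 strain difference was 1.01 lower in the adrenal gland (log2 difference of differences -1.01, SE 0.13, limma adjusted p = 3.96e-06), that of Itpr3 was higher (0.80, SE 0.13, adjusted p = 6.03e-05) and that of Stim1 was higher (0.33, SE 0.10, adjusted p = 0.0143).
Between the ganglion and the ventricle 2 of 8 members differed, where 14.4% of genes did: the Stim1 strain difference was 0.49 higher in the ganglion (SE 0.10, limma adjusted p = 0.00200) and that of Orai2 was lower (-0.43, SE 0.13, adjusted p = 0.0307). Itpr2 and Itpr3 had values of 0.49 and 0.36 that did not pass (adjusted p = 0.0781 and 0.0725). Itpr2 reached the filter of this model through the other tissues, and its ganglion levels were too low for the test of that tissue alone. The Orai2 value was lost in 6 of 24 refits without 1 library (adjusted p = 0.0190 to 0.0689 over the 24), while that of Stim1 was kept in all 24 (adjusted p = 9.04e-04 to 0.00594).
Between the adrenal gland and the ganglion Orai2 (-0.58, SE 0.13, limma adjusted p = 0.00187) and Itpr3 (0.45, SE 0.13, adjusted p = 0.0129) differed, 2 of 8 members where 29.8% of genes did. Orai3 had no tissue contrast that passed (0.08, 0.23 and -0.15 for adrenal gland minus ventricle, ganglion minus ventricle and adrenal gland minus ganglion, adjusted p = 0.686, 0.283 and 0.429), so its higher level in 2 SHR tissues was not shown to be particular to them.

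Levels of the sensors, pores and receptors differed between tissues, though all but Itpr2 in the ganglion passed the filter in every tissue. By mean FPKM 5 of the 8 members, Stim2, Orai3, Itpr1, Itpr2 and Itpr3, ranked the tissues alike in both strains. In SHR 2 of these places were not told apart, the adrenal gland and ventricle for Itpr3 (-0.08, limma adjusted p = 0.409) and the adrenal gland and ganglion for Itpr2 (0.16, adjusted p = 0.268). With median-of-ratios scaling the Itpr3 difference was -0.29 and passed (adjusted p = 0.00649), and with quantile normalization the Itpr2 difference was 0.53 and passed (adjusted p = 3.39e-04). Tissue contrasts of the same model passed for most genes (81.8% in WKY and 82.8% in SHR for adrenal gland against ventricle, 83.8% and 83.2% for ganglion against ventricle, 84.5% and 83.8% for adrenal gland against ganglion), and 8, 7 and 8 of the 8 members passed in WKY and 6, 7 and 7 in SHR. A passing member is therefore read by its order and size, not by the call. The median gene was 0.25 higher in the adrenal gland than in the ventricle in WKY on the log2 scale, and 0.04 higher with median-of-ratios scaling, so small differences between these 2 tissues depend on the scaling.
The ganglion had the highest Orai2 and Itpr3. In WKY Orai2 averaged 11.8 ± 0.34 FPKM there, 7.08-fold its adrenal level and 9.66-fold its ventricle level, and Itpr3 averaged 10.04 ± 0.37, 5.20-fold its adrenal level. In SHR the ratios of ganglion to adrenal gland were 13.9 for Orai2 and 3.35 for Itpr3. The adrenal and ventricle levels of Orai2 changed places between the strains: in WKY the adrenal gland was 0.26 above the ventricle on the log2 scale (limma adjusted p = 0.0136; 0.09 and adjusted p = 0.358 after median-of-ratios scaling, 0.17 and 0.0656 after quantile normalization) and in SHR it was 0.75 below (adjusted p = 1.03e-07).
The ventricle had the highest Itpr2, at 6.37 FPKM in WKY and 4.36 in SHR, 4.21-fold and 4.14-fold its adrenal level and 8.08-fold and 5.30-fold its ganglion level. The adrenal gland had the highest Orai3, Itpr1 and Stim2. Its Orai3 was 3.55-fold the ganglion level in WKY and 3.04-fold in SHR, its Itpr1 4.67-fold and 4.80-fold, and its Stim2 1.46-fold and 1.39-fold. The adrenal gland and the ventricle were close for Itpr1, 9.09 ± 0.75 and 7.18 ± 0.75 in WKY: the log2 difference of 0.31 passed (limma adjusted p = 0.0154) but not with median-of-ratios scaling (0.05, adjusted p = 0.671) or quantile normalization (0.11, adjusted p = 0.347).
Stim1, Stim2 and Orai1 varied least between tissues, with highest over lowest means of 1.52, 1.74 and 1.92 in WKY and 1.75, 1.95 and 1.78 in SHR. Stim1 was highest in the ganglion in both strains, though in WKY its lead over the ventricle, 0.26 on the log2 scale, fell to 0.09 and did not pass with quantile normalization (limma adjusted p = 0.209). In WKY the ventricle came next and the adrenal gland last, whereas in SHR the ventricle, at 10.3, and the adrenal gland, at 10.6, were not told apart (log2 difference 0.03, limma adjusted p = 0.678), and with median-of-ratios scaling the SHR adrenal gland was lower, by -0.22 (adjusted p = 0.00694). Orai1 was lowest in the adrenal gland in both strains, and its ventricle and ganglion levels did not differ past the threshold in WKY (0.26, adjusted p = 0.0593) or SHR (0.00, adjusted p = 0.982).

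The family member with the highest mean share differed between tissues: Orai1 led in the ventricle, Orai3 in the adrenal gland and Orai2 in the ganglion, while Itpr1 led in the ventricle and the adrenal gland and Itpr3 in the ganglion. Not every library followed its group's mean: Orai3 exceeded Orai1 in ventricle SHR replicate 2 (47.7% against 43.1%), and Orai1 exceeded Orai2 in ganglion WKY replicate 2 (43.4% against 43.2%). The ganglion drew 78.6% ± 3.22 (SD, n = 4) of its Itpr FPKM from Itpr3 in WKY and 79.1% ± 2.74 in SHR, the adrenal gland 72.6% ± 1.16 and 68.2% ± 1.12 from Itpr1, and the ventricle was mixed, with 40.0% ± 1.02 and 45.5% ± 1.38 from Itpr1, 35.4% and 31.4% from Itpr2 and 24.7% and 23.1% from Itpr3. Itpr3 made up 14.5% to 17.2% of adrenal Itpr FPKM in WKY libraries and 22.7% to 25.4% in SHR libraries, ranges that do not meet. In this gland the FPKM of 39.4% of all genes tested did not overlap between strains.
Of the Orai FPKM, Orai3 made up 62.3% ± 2.66 in WKY and 69.6% ± 4.64 in SHR adrenal glands but 13.1% ± 1.68 and 17.8% ± 1.47 in ganglia, where Orai2 held 45.1% ± 1.80 and 46.5% ± 2.03. In the ventricle Orai1 held 50.3% ± 1.98 and 46.9% ± 4.26 and Orai3 42.9% ± 2.19 and 42.5% ± 4.51, with Orai2 at 6.81% ± 0.37 in WKY and 10.6% ± 1.53 in SHR. The Stim1 share of Stim FPKM was 58.3% ± 1.87 and 55.1% ± 1.75 in the ventricle, 39.1% ± 4.06 and 39.3% ± 5.27 in the adrenal gland and 58.6% ± 1.90 and 60.4% ± 0.59 in the ganglion.
Family sums are given last. The ventricle's Itpr sum was 17.98 ± 2.07 FPKM in WKY and 13.9 ± 2.0 in SHR, and its Stim sum 22.4 ± 1.77 and 18.8 ± 0.63. In WKY libraries the Stim sum of the ventricle was 21.0 to 25.0 and in SHR libraries 17.96 to 19.5, with no overlap. Of single genes tested in the ventricle 24.8% did not overlap, and the sum includes Stim1, already called there. The Itpr sums, 16.25 to 20.97 in WKY and 12.06 to 16.26 in SHR, just met. The shares and sums are given without a test.

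**Figure D3:**
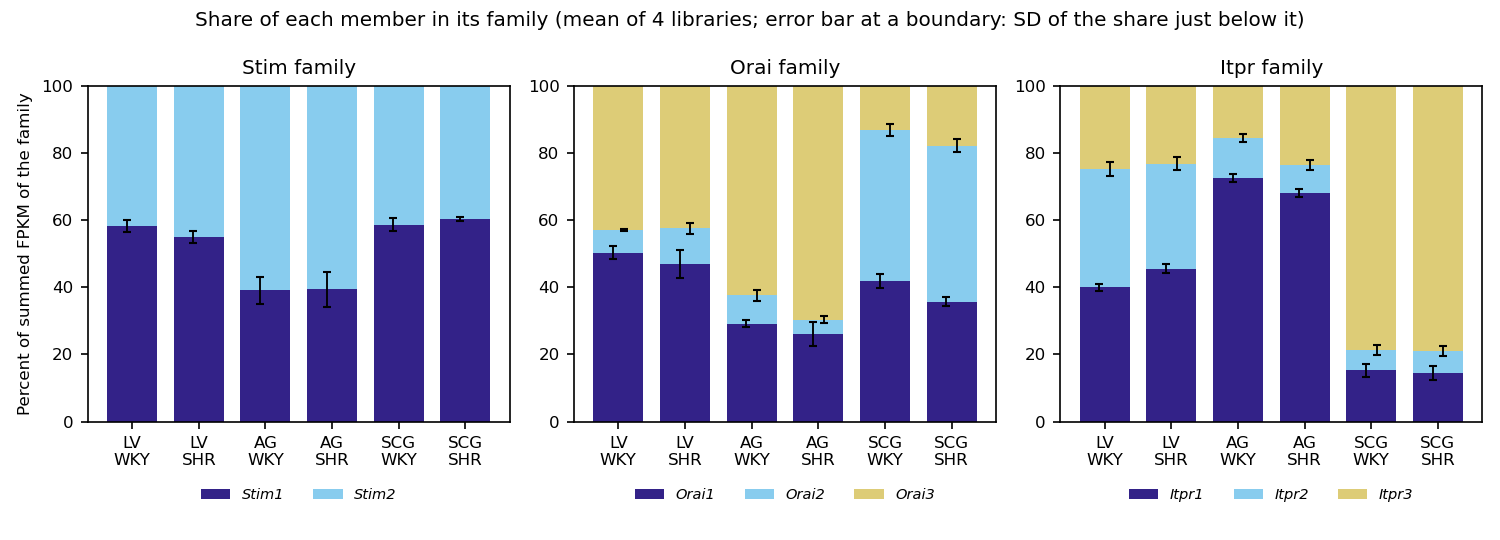
Mean share of each member in the summed FPKM of its family, in percent on the y axis, for the 6 groups of 4 libraries (LV left ventricle, AG adrenal gland, SCG superior cervical ganglion); the error bar at each boundary is the SD of the share just below it. Itpr3 fills 78.6% of the ganglion bar of WKY, Itpr1 72.6% of the adrenal bar, and Orai3 62.3% of the adrenal Orai bar.

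The other genes of the pathway were read in 7 lists with 103 genes that held values. Ventricles had 24 of 82 tested past the threshold, 12 higher and 12 lower in SHR (29.3%, with 21.2% of all genes). Adrenal glands had 25 of 81, 7 higher and 18 lower (30.9%, with 41.2%), and ganglia 13 of 85, 7 higher and 6 lower (15.3%, with 10.8%). Their median log2 difference was -0.02, -0.08 and 0.01, against -0.03, -0.04 and 0.01 for all genes. The counts of the single lists are descriptions, to be read against the same shares of all genes, 9.2% higher and 12.0% lower in the ventricle, 16.5% and 24.7% in the adrenal gland, 6.37% and 4.43% in the ganglion, and no list was tested against other genes.

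Upstream of the receptors are the genes that make IP3. Of 11 tested in the ventricle 3 fell and 1 rose (median -0.13): the phospholipase C genes Plcg1, from 57.5 ± 3.805 FPKM in WKY to 40.8 ± 3.57 in SHR (log2 difference -0.49), and Plcd1 (-0.51) were lower, and Plce1, an isozyme driven by Ras-family proteins, was higher (8.45 ± 0.67 to 12.6 ± 2.0, difference 0.51). Adrenal calls were 3 of 8 lower and none higher (median -0.15), a share near that of all adrenal genes, led by Plcb4, an isozyme activated by Gq, which fell from 12.01 ± 2.03 to 2.90 ± 0.17 FPKM (-1.73, SE 0.11, limma adjusted p = 4.95e-06). None of 11 passed in the ganglion with limma (0 had an unadjusted p under 0.05), and Plcb4 was the most abundant of the list at 82.8 ± 4.34 and 79.7 ± 7.49 FPKM (adjusted p = 0.686).
Genes that break down or phosphorylate IP3 or its breakdown products went both ways. Of those named here, Impa1 and Impa2 act on inositol monophosphates and not on IP3 itself. In the ventricle 3 of 8 fell and 1 rose (median -0.09), with Impa2, an inositol monophosphatase, at 36.05 ± 2.58 FPKM in WKY and 22.5 ± 1.01 in SHR (-0.66), the IP3 kinase Itpkb lower (-0.41) and the IP3 phosphatase Inpp5a higher (0.41). In the adrenal gland 2 of 8 rose and 1 fell (median 0.16): Impa2 rose from 1.42 ± 0.25 to 6.58 ± 0.81 FPKM (1.65, SE 0.11, limma adjusted p = 8.78e-06) and Impa1 by 0.38, while Inpp5a fell by 0.43. In the ganglion 1 of 9 passed, Itpkb (0.31).

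Among partners of the IP3 receptors, the ventricle had 3 of 15 higher and 2 lower (median -0.12), adrenal libraries had 6 of 16 lower and none higher (median -0.14), a share near the 41.2% of all adrenal genes, and ganglia had 2 of 13 higher and 1 lower (median 0.02). The scaffold gene Homer1 (0.35) and Bok (0.65), whose protein binds IP3 receptors, were higher in the ventricle, and Itpripl1 was lower (-0.77). In the adrenal gland Grina fell from 89.5 ± 1.25 to 60.2 ± 1.55 FPKM (-0.56), the immunophilin gene Fkbp1a by 0.48 and Ahcyl2 by 0.53. In the ganglion Chgb, a granule protein that binds IP3 receptors inside the store, rose from 91.1 ± 4.10 to 151 ± 9.82 FPKM (0.72, SE 0.05, limma adjusted p = 1.63e-05), and Bok rose by 0.28 while Fkbp1a fell by 0.22.
Of the genes that regulate STIM and ORAI or hold the membrane contact, ventricles had 1 of 13 higher and 2 lower (median 0.05), adrenal glands 2 of 17 higher and 2 lower (median -0.11), and ganglia 1 of 16 higher and 2 lower (median -0.02). Asph, whose locus also encodes the store protein junctate, was at 63.6 ± 1.38 FPKM in WKY and 90.5 ± 12.3 in SHR ventricles (0.49), and the caveolin gene Cav1 at 314 ± 49.6 and 231 ± 8.77 (-0.43). Esyt1, a tether between the reticulum and the plasma membrane, rose in the adrenal gland (0.51), and its relative Esyt2 fell in the ventricle (-0.23) and the ganglion (-0.22). The junctophilin gene Jph4 fell in the adrenal gland (-0.74) and rose in the ganglion (0.20).
TRPC genes, which encode receptor-operated cation channels, were mostly too low to test. With limma, calls were 0 of 2 for the ventricle (median -0.02; 0 had an unadjusted p under 0.05), 1 of 2 for the adrenal gland (median -0.35) and 1 of 3 for the ganglion (median 0.13). Both called genes reached the filter only through the strain where they were high, so these 2 counts are no support for a difference: Trpc5 was at 1.24 ± 0.08 FPKM in WKY and 0.56 ± 0.22 in SHR adrenal glands (-0.53), and Trpc4 at 0.40 ± 0.07 and 1.51 ± 0.25 in ganglia (0.84).

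Downstream, the calcineurin and NFAT list had 3 of 15 higher and 2 lower in the ventricle (median -0.07), 2 of 15 higher and 1 lower in the adrenal gland (median 0.14) and 1 of 15 higher in the ganglion (median 0.01). Rcan1, a calcineurin regulator that is itself an NFAT target, was the gene of this list with the largest difference in the ventricle, at 261 ± 43.4 FPKM in WKY and 684 ± 189 in SHR (1.36, SE 0.20, limma adjusted p = 0.00281), and it was also higher in the adrenal gland (7.69 ± 0.12 to 11.7 ± 0.26, difference 0.55). Nfatc2 (0.57) was higher in the ventricle and the calmodulin gene Calm3 (-0.44) lower. In the ganglion the gene that passed was Rcan2 (0.43).
Genes of the store and its contact with mitochondria had 3 of 18 higher and none lower in the ventricle (median 0.11), 1 of 15 higher and 4 lower in the adrenal gland (median -0.13), and 1 of 18 higher and 3 lower in the ganglion (median -0.02). Among the ryanodine receptors, the other release channels of the store, 2 rose in the ventricle and Ryr1 was too low to test, Ryr2 from 85.4 ± 6.84 to 134 ± 22.6 FPKM (0.64) and Ryr3 from 1.96 ± 0.28 to 5.63 ± 1.99 (1.11). Itpr2 and Itpr3 fell in the same libraries. The calcium pump Atp2a2, the most abundant of the list at 2322 ± 252 and 2175 ± 137 FPKM, did not pass (-0.09, limma adjusted p = 0.456).

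**Figure D4:**
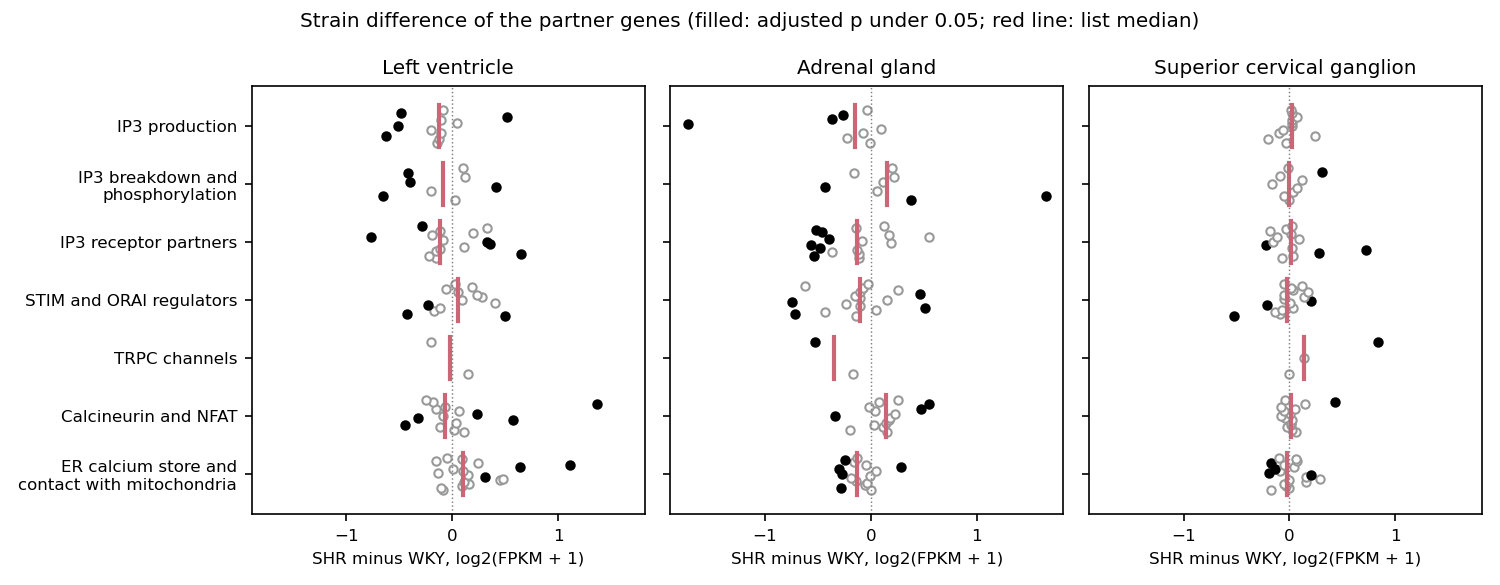
Strain difference of each tested partner gene, in log2(FPKM + 1) units of SHR less WKY, by list and tissue; filled points passed the adjusted threshold of 0.05, and the red line is the median of the list. The medians lie between -0.35 and 0.16, and single genes reach -1.73 (Plcb4) and 1.65 (Impa2) in the adrenal gland and 1.36 (Rcan1) in the left ventricle.

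Genes that neighbour the members on the chromosome were read for the same contrast, 2 on either side among the deposited table's genes, in the order of the GRCr8 gene table. Of the 32 neighbours, ventricles had 3 of 28 tested past the threshold, adrenal glands 5 of 23 and ganglia 6 of 26, with 21.2%, 41.2% and 10.8% of all genes. None of Stim1's tested neighbours Pgap2, Rhog and Rrm1 passed in the ventricle or the ganglion, where Stim1 did, with log2 differences of -0.14 to 0.10; in the adrenal gland Rrm1 was higher in SHR (0.37), where Stim1 was not. Beside Orai2, Prkrip1 was higher in the ventricle (0.31) and the ganglion (0.34), and Alkbh4 (-0.51) and Lrwd1 (-0.24) were lower in the adrenal gland. Beside Orai3, Hsd3b7 was higher in the adrenal gland (0.60) and the ganglion (0.28), the same 2 tissues as Orai3. Beside Itpr3, Uqcc2 was higher in the ventricle (0.27), and Ggnbp1, which reached the filter only through WKY, was at 1.09 to 1.69 FPKM in WKY and 0.53 to 0.94 in SHR (-0.48). Calls also stood beside members that had none in that tissue: Tbc1d19 in the adrenal gland (0.51) and the ganglion (0.19) and Cckar in the ganglion (0.65), both beside Stim2, Bhlhe40 beside Itpr1 (0.33) and Sspn beside Itpr2 (0.32) in the ganglion.

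Among 14681 other genes, those whose log2(FPKM + 1) followed the members most closely over the 24 libraries were Maob and Ranbp17 for Stim1 (Pearson r = 0.95 and 0.94), Golph3l and Tmem260 for Stim2 (0.97 and 0.97), Ccl2 and Camta1 for Orai1 (0.92 and 0.91), and Layn and Cnksr2 for Orai2 (0.99 and 0.99). For Orai3 they were Zcchc8 and LOC103690108 (0.98 and 0.98), for Itpr1 Dock1 and Ibtk (0.99 and 0.98), for Itpr2 Hmcn1 and Rps6ka3 (0.98 and 0.98) and for Itpr3 Arhgef25 and Taf9b (0.98 and 0.98). These values describe the tissue pattern, which all genes share through the same libraries.
With each tissue's mean subtracted, the closest were Cdk5rap3 and Stau1 for Stim1 (r = 0.91 and 0.84), Srsf3 and Frg1 for Stim2 (0.78 and 0.78), Pef1 and Agap3 for Orai1 (0.74 and 0.71) and Bcat1 and Cd44 for Orai2 (0.92 and 0.92). For Orai3 they were Polr3gl and Aggf1 (0.83 and 0.83), for Itpr2 Shroom4 and Ncoa3 (0.90 and 0.83) and for Itpr3 Rbck1 and Wwc2 (0.88 and 0.88). For Itpr1 the closest were Sbf2 (0.83) and another member, Itpr2 (0.82), while Itpr1 was not among the 2 closest to Itpr2. Only tissue means were subtracted, so the strain differences given above stay in these values and can raise r.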

How the data were processed

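Per the file headers the deposited values are FPKM, 1 column per library, with 2 decimals. It also has the authors' own strain comparison, as log2 ratios with q-values deposited for every tissue, used here only to count q-values under 0.05 and compare the directions of those ratios. Tools listed without role or order in the submitters' processing notes are RSEM 1.3.1, Bowtie2 and DESeq2 1.4.5, and the build listed there is Rnor_6.0; per the labels' protocols, Trizol RNA entered a KAPA RNA HyperPrep library read on a BGISEQ-500. Blank rows (2358 genes) were dropped, and 27 symbols turned into dates were replaced by RefSeq symbols where the gene identifier matched (GRCr8). Read counts were not recovered from FPKM.

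Groups came from sample titles. limma 3.58.1 in R 4.3.3 used trend and robust moderation, 2-sided. Library correlations within a strain were 0.979 to 0.994. In simulated data on the real genes, log2 changes of 1 were recovered in 93%, 90% and 98% of cases (ventricle, adrenal gland, ganglion) and changes of 0.5 in 68%, 58% and 81%. Only 100 genes per size were changed in each tissue, a smaller share than passed in the data. These rates therefore do not measure recovery in the data. Members, lists and tests were chosen with earlier results of these data known. Named partners are up to 3 genes past the threshold by smallest adjusted p and the most abundant gene per list and tissue; not all of them are spelled out. Alternatives changed the pseudocount, filter, scaling, moderation, replicate block and single libraries. Python 3.11.15 and matplotlib 3.10.9 made tables and figures.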

Additional observations from a re-analysis of the deposited data

Results flagged for a closer look

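The strain difference of 3 genes differed between tissues by the interaction test in limma, in 7 of 24 tests of 8 genes and 3 pairs of tissues. Of all 14682 genes 34.5% passed for adrenal gland minus ventricle, 14.4% for ganglion minus ventricle and 29.8% for adrenal gland minus ganglion. The members' count is to be read against these shares. For Orai2 the values were -1.01 for adrenal gland minus ventricle, -0.43 for ganglion minus ventricle and -0.58 for adrenal gland minus ganglion. For Itpr3 they were 0.80 for adrenal gland minus ventricle and 0.45 for adrenal gland minus ganglion, and for Stim1 0.33 for adrenal gland minus ventricle and 0.49 for ganglion minus ventricle. In the adrenal gland chromaffin, endothelial, leukocyte and fibroblast markers were lower in SHR, and their part in these differences was not tested. Of 48 sets of 4 libraries, 1 for each gene and group, no library stood apart by Dixon's test.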

How the results depend on the processing

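The Stim1, Orai2 and Itpr3 calls in the ventricle and the Itpr3 call in the adrenal gland held under every alternative run. Leaving out 1 library, ventricles had 3 to 5 of 8 members past the threshold, adrenal glands 2 to 4 and ganglia 0 to 2 of 7; in ganglia 1 passed with no filter on low values and 1 with no trend and no robust step. For ganglion minus ventricle 1 to 3 members differed without 1 library. Replicate numbers were not taken as pairs, because not every same-numbered pair correlated above 0.1 (between strains, ventricles had 2 of 4 such pairs, adrenal glands 3 and ganglia 1, with r from -0.10 to 0.19; 3 ventricle WKY libraries correlated best with their own number, a hint from the data only), so the replicate block is given here only: with it 2407 genes passed in the ventricle (2644 without), 5182 in the adrenal gland (5181) and 1206 in the ganglion (1402), with 3, 3 and 2 members; Itpr2 in the ventricle (adjusted p = 0.0533) and Orai2 for ganglion minus ventricle (0.0676) then missed the threshold. These values changed sign, none of them called as reported. With median-of-ratios scaling and quantile normalization Orai1 in the adrenal gland was at 0.017 and 0.023, Stim1 for adrenal gland minus ventricle in SHR at -0.22 and -0.23, and Orai1 for ganglion minus ventricle in SHR at -0.10 and -0.22. Without 1 library the ranges were -0.041 to 0.198 for Orai1 in the ventricle; -0.041 to 0.080 for Stim1, -0.062 to 0.062 for Stim2 and -0.160 to 0.017 for Orai1 in the adrenal gland; -0.068 to 0.050 for Itpr3 in the ganglion; -0.025 to 0.137 for the Orai3 strain difference, adrenal gland minus ventricle; and, in SHR, -0.020 to 0.091 for Stim1, adrenal gland minus ventricle, and -0.090 to 0.149 for Orai1, ganglion minus ventricle. The causes were not tested. FPKM hold no depth, so counting error is unknown.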
